A study of Arabidopsis thaliana with 39 samples.

Results

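The comparison described here is that of iron-free with iron medium 30 h after transfer in sorted root epidermis of Arabidopsis thaliana. It took in 6 of the 39 samples of the series, 3 on -Fe and 3 on +Fe medium at 30 h, and all 806 genes of the deposited table. Each group of 3 samples is represented in that table by 1 pooled RPKM value per gene, that is, reads scaled to the length of the gene and to a read total. All seedlings were of the Col-0 line pWER::GFP, in which the WER promoter drives a green fluorescent protein in the root epidermis and, as is known of this promoter, in the lateral root cap. They grew on +Fe medium for 7 days and were then moved to fresh +Fe or to -Fe medium, and root protoplasts were then sorted for the fluorescent marker. The +Fe medium held 0.1 mM FeEDTA. The -Fe medium held 300 μM ferrozine, a chelator of iron; the sample labels leave FeEDTA out of it, whereas the study's methods describe it in both media, so the iron left on -Fe medium is not settled. No age, tissue or allele differed between the groups by the labels, and the promoter of the marker was shared by both.

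With 1 value per group there was no replicate check of any difference below, and neither an error nor a significance test can be offered. The measure was the log2 ratio of RPKM + 1, -Fe to +Fe, which understates the change of low genes. A gene was counted as higher or lower on -Fe where this ratio was at least 0.75 or at most -0.75, which is the size threshold of the study. The genes of the table are named there as differentially expressed ones of the epidermis at any time point, so their shares do not describe all expressed genes. The sets of such genes that the study reported were larger than this table. Below, a gene is called measured where it is in the table, and a gene outside it may still have been detected in the libraries. All lists were chosen with earlier results of these data known. In such bulk samples, fewer cells of a type and less RNA per cell cannot be told apart. The sequencing depth behind the values is unknown.

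Roots of Arabidopsis take up iron by a reduction strategy: protons are pumped out of the epidermis, ferric iron is reduced at the surface by FRO2, and ferrous iron enters through the transporter IRT1. These genes are switched on by the bHLH factor FIT, together with bHLH38, bHLH39, bHLH100 and bHLH101, and are held back by the BTS family of iron-sensing ubiquitin ligases. When iron is plentiful it is stored in ferritin shells in plastids and is built into haem and iron-sulphur clusters.

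At 30 h the genes that led upward on -Fe were those of iron uptake and its regulation, and among the genes that led downward were a nitrate transporter, an inositol oxygenase, genes of sugar starvation and amino acid breakdown and indole glucosinolate methyltransferases. The ferritins were lower too, outside the 20 lowest genes. Of the 806 genes, 91 (11.3%) were higher and 211 (26.2%) were lower on -Fe, together 302 (37.5%), and 504 lay between the thresholds. The higher genes were fewer but reached farther. Their ratios ran from 0.76 to 7.47 with a median of 1.38, and 28 of them were at 2 or more. The lower genes ran from -0.77 to -6.05 with a median of -1.62, and 56 of them were at -2 or less. Over all genes the median was -0.02. The values carry a limit of scale: multiplied by exon length, their sums over these genes varied by only 0.325% (coefficient of variation) among the 13 groups, so that a level reads as a share of the table. The jacalin-type lectin AT1G52070 alone took 8.09% of that sum on +Fe and 10.7% on -Fe at 30 h. When both groups were scaled to the same median level, the median over all genes went to 0.13, and 118 genes were higher and 188 lower.

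**Figure D1:**
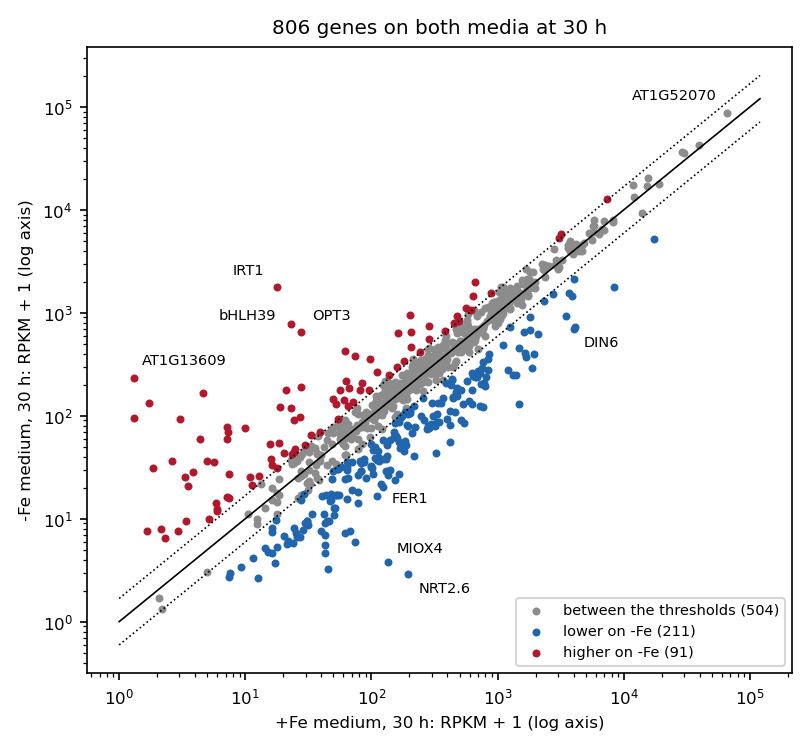
Each point is 1 of the 806 genes, with RPKM + 1 on +Fe at 30 h on the horizontal and on -Fe at 30 h on the vertical log axis; the solid line marks equal levels and the dotted lines a log2 ratio of 0.75 and -0.75. The 91 higher genes (red) spread far above the line at low +Fe levels, whereas the 211 lower genes (blue) form a broad band below it.

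The uptake genes were higher on -Fe, with the importers far ahead of the reductase and the proton pump. Of 12 genes of a list of iron uptake and secretion, 5 were measured; 4 of these were higher and none was lower, with a median ratio of 1.28 against -0.02 over all genes. IRT1, the main importer of ferrous iron, stood at 16.8 RPKM on +Fe and at 1763 RPKM on -Fe, a ratio of 6.63. Its level at the start, at 0 h, had been 19.5 RPKM, close to that on +Fe. IRT2, the related transporter of internal vesicles, stood at 2.06 RPKM on +Fe and 92.0 RPKM on -Fe, a ratio of 4.92. FRO2, the ferric reductase of the root surface, was already well expressed with iron, at 380 RPKM, and reached 667 RPKM without it, a ratio of 0.81. The proton pump AHA7 had 4.83 RPKM on +Fe and 13.2 RPKM on -Fe, a ratio of 1.28; it had 20.9 RPKM at 0 h, above both, and shares 134 exon bases with a gene on the other strand. F6H1, the feruloyl-CoA hydroxylase that makes the coumarin scopoletin, had 35.1 and 32.5 RPKM, a ratio of -0.11. The reductase gene FRO4, which is outside the list and was picked after its value was seen, was low on both media, at 1.15 and 6.86 RPKM, with a ratio of 1.87.

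The regulators of iron uptake were higher on -Fe as well, apart from FIT and BTS, which stayed under the threshold. Of 20 genes of a list of iron regulators and signalling, 8 were measured, 6 were higher and none was lower, with a median ratio of 2.72. The subgroup Ib factor bHLH38 was nearly silent with iron, at 0.72 RPKM, and stood at 131 RPKM without it, a ratio of 6.26; it shares 386 exon bases with the gene on the other strand, AT3G56960. Its neighbour and partner bHLH39 stood at 21.8 RPKM on +Fe and 773 RPKM on -Fe, a ratio of 5.09. The third member, bHLH101, stood at 20.1 and 178 RPKM, a ratio of 3.08. At 0 h these factors had been at 0.79, 21.2 and 32.9 RPKM, far closer to +Fe than to -Fe. IMA2, a short peptide of the IRON MAN family that promotes the response, was listed at 0 at 0 h, had 0.31 RPKM on +Fe and 93.2 RPKM on -Fe, a ratio of 6.16. BTSL1, one of the ubiquitin ligases that hold FIT back, stood at 22.1 and 118 RPKM, a ratio of 2.36, though 471 of its exon bases are shared with the opposite strand. Its relative BTS stood at 127 and 215 RPKM and had a ratio just short of the threshold, 0.7496. ORG1, which carries a kinase-like domain, stood at 203 and 655 RPKM, a ratio of 1.68. FIT itself was abundant on both media, at 578 RPKM on +Fe and 749 RPKM on -Fe, a ratio of 0.37, and had been at 851 RPKM at 0 h.

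Most of the genes described for moving iron and other metals within the plant followed in the same direction, whereas ZIP5 and IRT3 were lower. Of 16 genes of iron chelation and movement 3 were measured and 2 were higher, with a median of 1.86. OPT3, the phloem transporter that is known to carry the iron signal from shoot to root, stood at 26.8 RPKM on +Fe and 646 RPKM on -Fe, a ratio of 4.54, with 26.6 RPKM at 0 h. FRO3, the ferric reductase of mitochondria, stood at 96.0 and 351 RPKM, a ratio of 1.86. NRAMP4, which releases iron from the vacuole, had 214 and 317 RPKM, a ratio of 0.56 and under the threshold. Of 15 genes for other metals 3 were measured. COPT2, the high-affinity copper importer, had 0.85 RPKM on +Fe, 30.1 RPKM on -Fe and 11.1 RPKM at 0 h, a ratio of 4.07. MTP3, which moves zinc that enters by way of IRT1 into the vacuole, stood at 6.22 and 77.5 RPKM, a ratio of 3.44. The zinc transporter gene ZIP5 was lower, at 48.5 RPKM on +Fe and 28.0 RPKM on -Fe, a ratio of -0.77, just past the threshold. The related IRT3, outside the list and picked after its value was seen, was lower too, at 64.5 and 24.0 RPKM, a ratio of -1.39.

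**Figure D2:**
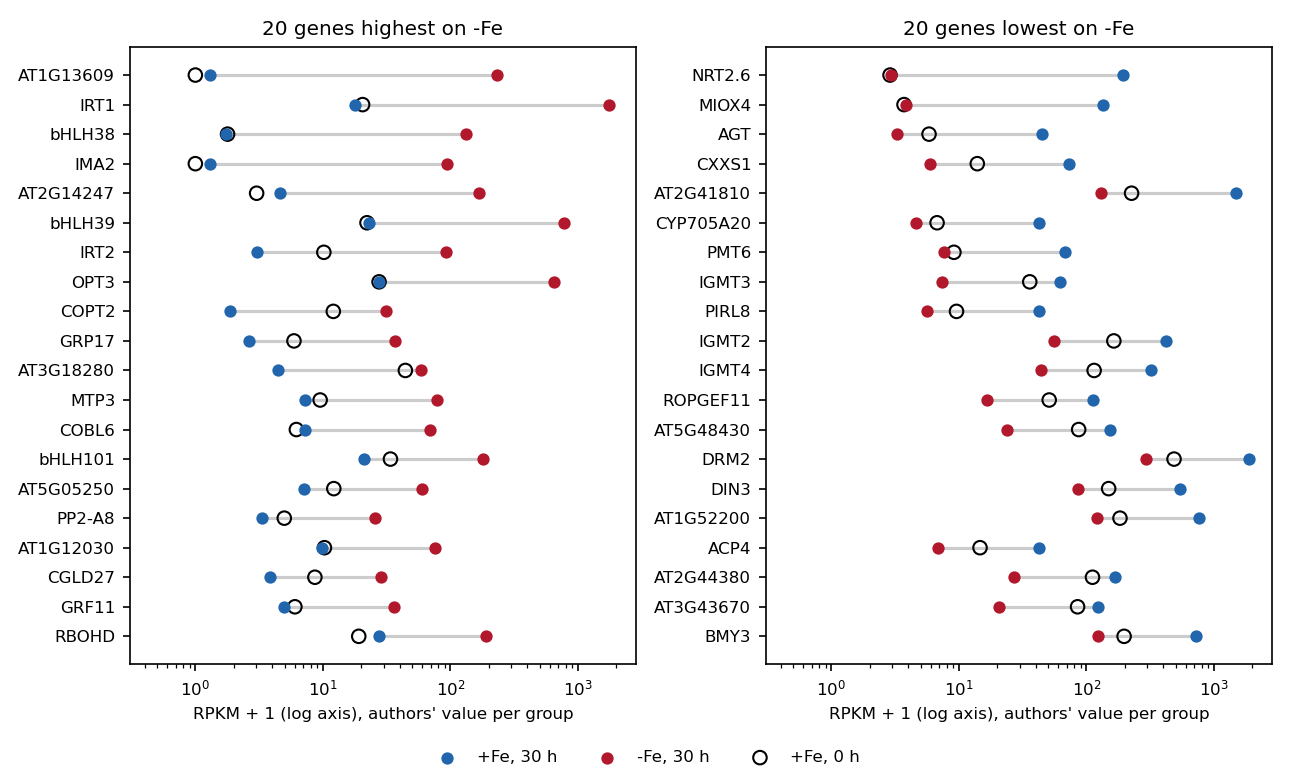
RPKM + 1 on a log axis for the 20 genes with the highest ratio (left) and the 20 with the lowest (right), on +Fe at 30 h (blue), -Fe at 30 h (red) and at 0 h (open circles). For IRT1, bHLH38, bHLH39 and OPT3 the 0 h circle lies on the +Fe point, while for NRT2.6 and MIOX4 it lies on the -Fe point.

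Genes for storage of iron went the other way. All 3 measured ferritin genes, of a list of 10 storage and iron protein genes, were lower on -Fe. Their median was -2.29, and 26.2% of the table was lower. FER1 stood at 118 RPKM on +Fe and 20.6 RPKM on -Fe, a ratio of -2.46, and at 230 RPKM at 0 h. FER4, the ferritin also found in mitochondria, stood at 45.2 and 8.41 RPKM, a ratio of -2.29, and shares 118 exon bases with a gene on its own strand. FER3 was the most abundant of them, with 416 RPKM on +Fe and 111 RPKM on -Fe, a ratio of -1.90.

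Genes of haem, iron-sulphur and tetrapyrrole proteins and of other iron enzymes are described by list and by family. A list of 10 genes of haem, iron-sulphur and tetrapyrrole proteins, put together after the values had been seen, held 8 lower and 1 higher gene and had a median of -1.32, and nothing is read from that share. Of the families of haem and iron enzymes, 3 of 18 cytochromes P450 (16.7%) and 1 of 5 peroxidases (20%) were lower. None of 5 2-oxoglutarate oxygenases was, against 26.2% of the table. Counts so small do not set these families apart from the table. HEMA1, the glutamyl-tRNA reductase at the entry to tetrapyrrole synthesis, stood at 275 RPKM on +Fe and 73.2 RPKM on -Fe, a ratio of -1.89. GUN5, the subunit of magnesium chelatase at the branch to chlorophyll, stood at 28.6 and 8.05 RPKM, a ratio of -1.71. ABCI8, a plastid protein of iron-sulphur cluster assembly, stood at 116 and 37.4 RPKM, a ratio of -1.60. Ascorbate peroxidases, haem enzymes that remove hydrogen peroxide, were in the list: SAPX, the stromal ascorbate peroxidase, had 641 and 244 RPKM, a ratio of -1.39, and the cytosolic APX1 had 3704 and 1553 RPKM, a ratio of -1.25. SIR, the sulphite reductase with a siroheme and an iron-sulphur cluster, had 853 and 401 RPKM, a ratio of -1.09. ACO3, an aconitase with an iron-sulphur cluster, had 1820 and 913 RPKM, a ratio of -0.995. At 0 h these genes had been near their +Fe levels, at 263 RPKM for HEMA1, 103 RPKM for ABCI8, 558 RPKM for SAPX, 3381 RPKM for APX1 and 807 RPKM for SIR, whereas GUN5 had 13.6 RPKM. The only member higher on -Fe was NIA1, a nitrate reductase, which carries haem and a molybdenum cofactor.

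Among the rest of the 20 highest genes were several of little known function. The gene with the highest ratio of all was AT1G13609, annotated as a defensin-like protein, which was listed at 0 at 0 h and had 0.31 RPKM on +Fe and 232 RPKM on -Fe, a ratio of 7.47. AT2G14247, without a described function, stood at 3.64 and 165 RPKM, a ratio of 5.16, and shares 233 exon bases with the other strand. The oxidase RBOHD, which makes superoxide in the apoplast, stood at 26.6 and 190 RPKM, a ratio of 2.79. GRF11, a 14-3-3 protein known from the iron response of the root, stood at 3.97 and 35.1 RPKM, a ratio of 2.86. CGLD27, a conserved protein of the chloroplast, stood at 2.84 and 27.4 RPKM, a ratio of 2.89. The remaining ones of the 20, GRP17, AT3G18280, COBL6, AT5G05250, PP2-A8 and AT1G12030, had ratios between 2.94 and 3.80 and lay between 1.62 and 8.91 RPKM on +Fe. Just beyond them came MT1C, a metallothionein that binds copper and zinc, which is no member of the lists and was picked after its value was seen; it had 60.8 RPKM on +Fe, 425 RPKM on -Fe and 385 RPKM at 0 h, a ratio of 2.78.

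Of 16 genes for auxin, a list put together after the values had been seen, 4 (25%) were higher and 1 (6.25%) was lower, against 11.3% and 26.2% of the table, with a median of 0.25. GH3.3, an enzyme that joins auxin to amino acids, had 2.51 and 19.9 RPKM, a ratio of 2.57. YUC8 and YUC5, enzymes of the last step of auxin synthesis, had ratios of 1.00 and 0.93, from 561 and 179 RPKM on +Fe. TAR2, an enzyme of the step before, was lower, at 174 and 98.9 RPKM, a ratio of -0.80.

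The genes of nitrate uptake and assimilation split between both directions. Of 12 genes 5 were measured, 2 were higher and 2 lower, and the median was 0.22. NRT2.6, a member of the high-affinity nitrate transporter family, was the lowest gene of the table: it stood at 193 RPKM on +Fe, 1.91 RPKM on -Fe and 1.89 RPKM at 0 h, a ratio of -6.05. NRT3.1, the partner protein that high-affinity nitrate transporters need, stood at 754 and 289 RPKM, a ratio of -1.38. NRT1.8, a transporter that takes nitrate back out of the xylem, was lower as well, at 49.4 and 9.96 RPKM and with 4.84 RPKM at 0 h, a ratio of -2.20. In the other direction, NRT1.1, the dual-affinity nitrate transporter and sensor, stood at 72.5 RPKM on +Fe and 378 RPKM on -Fe, a ratio of 2.37, with 319 RPKM at 0 h. NIA1 stood at 48.7 and 144 RPKM, a ratio of 1.54, with 145 RPKM at 0 h. NIA2, the major nitrate reductase, had 1429 and 1663 RPKM, a ratio of 0.22. For NRT2.6, NRT1.1 and NIA1 the 0 h level was thus close to that on -Fe, and the +Fe level at 30 h stood apart. LSU2, the one measured gene of 9 of sulphate nutrition, is a marker of low sulphur. Its 0 h level was likewise nearer to that on -Fe. It had 146 RPKM at 0 h, 51.1 RPKM on +Fe and 128 RPKM on -Fe, a ratio of 1.31.

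Apart from the genes annotated with the word kinase, the list with the most lower genes was that of sugar starvation and amino acid breakdown. Many of its genes are ones that plants switch on in the dark or when sugar runs out. Of 29 genes 11 were measured, and 9 were lower, 1 was higher and the median was -2.04. The share of lower genes was 81.8%, against 26.2% of the table. As this list was chosen with earlier results of these data known, the share is a description only. DIN6, which makes asparagine as a store of nitrogen, stood at 4002 RPKM on +Fe and 702 RPKM on -Fe, a ratio of -2.51. DIN3 and DIN4, subunits of the enzyme complex that breaks down branched-chain amino acids, had 542 and 84.7 RPKM and 76.6 and 25.4 RPKM, with ratios of -2.66 and -1.56. MCCA, of leucine breakdown, had 179 and 44.0 RPKM, a ratio of -2.0, and shares 300 exon bases with the other strand. PRODH1, the proline dehydrogenase, was one of the most abundant of the lower genes, at 17308 and 5166 RPKM, a ratio of -1.74. DIN10, of the raffinose synthase family, stood at 1660 and 403 RPKM, a ratio of -2.04. The dormancy-associated genes DRM1 and DRM2 had 1210 and 275 RPKM and 1880 and 293 RPKM, with ratios of -2.13 and -2.68. AGT, an aminotransferase of photorespiration, was low, at 44.0 and 2.28 RPKM, a ratio of -3.78. GDH1, a glutamate dehydrogenase, was the member higher on -Fe, with a ratio of 0.77, and EXL2 had one of 0.22.

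At 0 h the levels of these genes mostly lay between those of both media and nearer to that on -Fe: DIN6 had 1352 RPKM, DIN10 518 RPKM, DRM2 485 RPKM, DIN3 148 RPKM and PRODH1 6804 RPKM. Other carbon genes, picked in part after their values had been seen, had the same order, except that MIOX4 was slightly lower at 0 h than on -Fe. PCK2, a phosphoenolpyruvate carboxykinase that feeds carbon back towards sugars, stood at 4137 RPKM on +Fe, 722 RPKM on -Fe and 1060 RPKM at 0 h, a ratio of -2.52. BMY3, annotated as a beta-amylase, stood at 722, 123 and 196 RPKM in that order, a ratio of -2.55. Both MIOX4 and MIOX2, inositol oxygenases at the entry to a route for uronic acids, were lower. MIOX4 had 135 RPKM on +Fe, 2.84 RPKM on -Fe and 2.71 RPKM at 0 h, a ratio of -5.14, the second lowest of the table. MIOX2 had 1928, 396 and 506 RPKM, a ratio of -2.28. The regulators KIN11, a catalytic subunit of the energy-sensing kinase SnRK1, and BZO2H3 (bZIP63), a factor that SnRK1 phosphorylates, were lower too, at 354 and 131 RPKM and at 342 and 86.6 RPKM, with ratios of -1.43 and -1.97. All 5 genes of a list of dormancy and aluminium-induced proteins, made after the values had been seen and sharing DRM1 and DRM2 with the list above, were lower, with a median of -2.13.

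**Figure D3:**
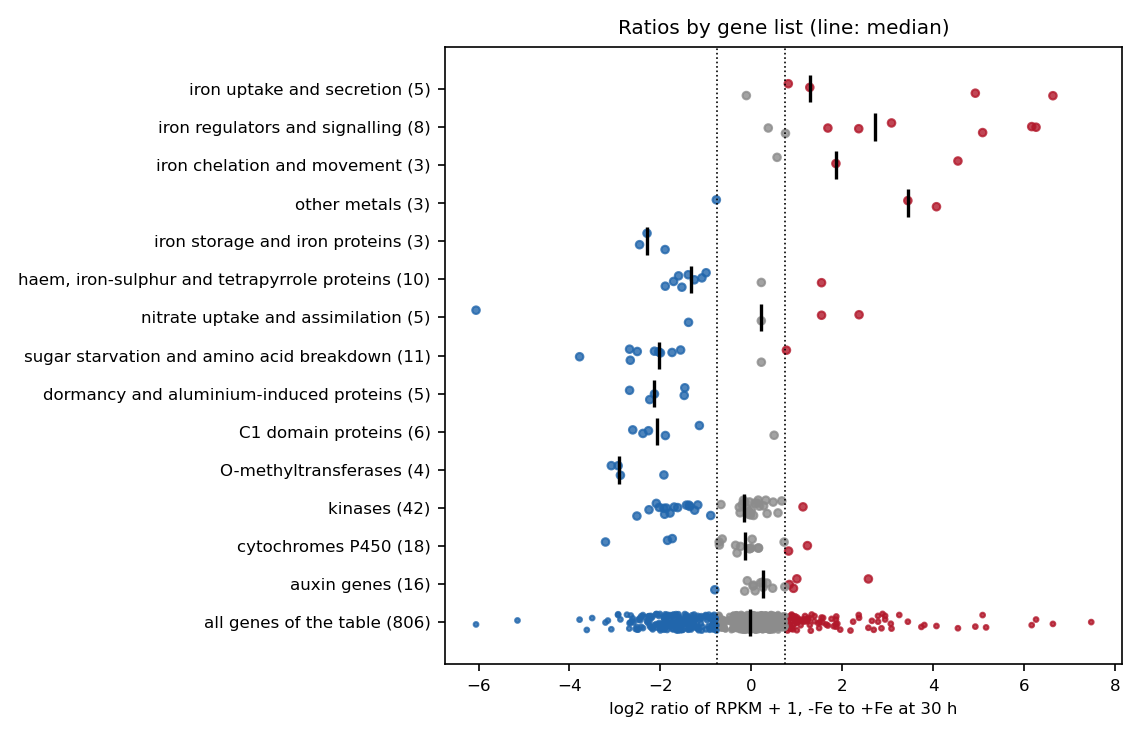
Log2 ratio of RPKM + 1, -Fe to +Fe at 30 h, for the genes of 14 lists and for all 806 genes, with the number of genes measured in brackets; points are red where higher, blue where lower and grey between the dotted thresholds, and black lines mark medians. The iron uptake and regulator genes lie on the right, and the ferritins, the sugar starvation genes and the O-methyltransferases on the left.

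Among genes for defence compounds and detoxification, those that methylate indole glucosinolates were lower, whereas the large families stood near the table or below it. IGMT2, IGMT3 and IGMT4, enzymes that methylate indole glucosinolates, had ratios of -2.93, -3.08 and -2.88, with levels of 420, 60.8 and 321 RPKM on +Fe and of 54.3, 6.31 and 42.8 RPKM on -Fe. They lie side by side on chromosome 1, and IGMT2 and IGMT3 share a near-identical stretch of 634 bases, so that their reads may not have been split correctly. With CCOAMT, at 20.5 and 4.66 RPKM, all 4 O-methyltransferases of the table were lower, a list made after the values had been seen. Of 8 glutathione S-transferases, enzymes that join glutathione to foreign compounds, 2 (25%) were lower, about the 26.2% of the table, and none was higher. The lower ones were GSTF7, at 594 and 139 RPKM, and GSTF6, at 315 and 78.0 RPKM, with ratios of -2.08 and -2.0. The other 6 were of the tau class and under the threshold, and 2 of them, GSTU19 and GSTU25, were among the 5 most abundant genes, with 30128 and 28703 RPKM on +Fe and ratios of 0.24 and 0.35. Of 18 cytochromes P450, 2 were higher and 3 lower, shares of 11.1% and 16.7% against 11.3% and 26.2% of the table. The lowest of these was CYP705A20, at 41.7 and 3.62 RPKM, a ratio of -3.21.

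Genes annotated with the word kinase and some signalling genes leaned to the lower side. Of 42 genes whose annotation holds the word kinase, 16 (38.1%) were lower and 1 (2.38%) was higher, with a median of -0.16, against 26.2% and 11.3% in the table. The word also takes in enzymes of metabolism, PCK2 among them, so the 42 are not signalling kinases alone. All 3 calcium-binding EF-hand proteins, a list made after the values had been seen, were lower, among them TCH3, a calmodulin-like protein induced by touch, at 1327 and 247 RPKM, a ratio of -2.42. SOS3, the calcium sensor of the salt response, stood at 138 and 56.9 RPKM, a ratio of -1.27. Of 6 proteins with a C1 domain, likewise chosen after their values were seen, 5 were lower, and the median was -2.08. ROPGEF11, an activator of ROP GTPases, had 111 and 15.8 RPKM, a ratio of -2.74, and shares 174 exon bases with the other strand. The rest of the 20 lowest genes, among them CXXS1, PMT6, PIRL8, ACP4 and the copper amine oxidase AT3G43670, had ratios from -2.59 to -3.62.

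Both measured genes of a list of root hair and epidermal fate, GL2 and GL3, were lower on -Fe, against 26.2% of the table. The WER gene itself was not analysed here. Only 2 of the 21 genes of that list were in the table, so the label of the sorted cells could be checked only in part. GL2, the homeobox factor that keeps cells of the epidermis hairless, stood at 248 RPKM on +Fe, 98.1 RPKM on -Fe and 189 RPKM at 0 h, a ratio of -1.33, with 198 exon bases shared with the other strand. GL3, the bHLH factor that acts with WER to switch GL2 on, stood at 39.8, 15.5 and 19.9 RPKM in that order, a ratio of -1.31. Outside the list, TTG2, a WRKY factor that acts in the same pathway, stood at 103 and 45.4 RPKM, a ratio of -1.16. HDG7, a homeobox factor related to GL2 and also outside the list, stood at 106 and 37.8 RPKM, a ratio of -1.47. Of its exon bases 1571 are shared with the other strand. Of 12 markers of other root cell types only BRN1, a NAC factor of the root cap, was in the table. It was high and nearly equal in all groups compared, at 1709 RPKM on +Fe, 1641 RPKM on -Fe and 1601 RPKM at 0 h, a ratio of -0.06. The part that a change in the make-up of the sorted cells may have in these differences was not tested.

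The genes of highest level differed little between the media. The 5 with the highest mean over both media were AT1G52070, AT1G52060, GSTU19, GSTU25 and AT5G10130, the last annotated as an allergen and extensin family protein, and their ratios lay between -0.08 and 0.41. Just inside the upper threshold lay MYB30, GDH1 and AT5G16010, with ratios of 0.76, 0.77 and 0.77, and just below it UGT75B1, AT5G41540 and BTS, with 0.74, 0.75 and 0.75. On the lower side NIT4, ZIP5 and PRH75 were just past the threshold, with -0.77, -0.77 and -0.78, and CYP71A12, GLB1 and AT4G12750 just short of it, with -0.71, -0.73 and -0.73.

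The time course on both media gave the place of the 30 h values. The choice of genes fixes which medium is higher at 30 h. Genes picked for a wide gap at 30 h are also more likely to have a 0 h level between the media. The counts of such levels are therefore descriptions only, and the other genes were not counted. Over the 91 higher genes the median level was 54.9 RPKM at 0 h, 23.4 RPKM on +Fe at 30 h and 121 RPKM on -Fe at 30 h. Over the 211 lower genes it was 89.7 RPKM at 0 h, 154 RPKM on +Fe and 51.1 RPKM on -Fe. The 0 h level lay between those of both media for 53 of the 91 and for 164 of the 211 genes. On +Fe medium the median of the 211 genes had gone up to 283 RPKM at 6 h and came down to 101 RPKM at 36 h, so that the medium with iron did not stay at its starting level.

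**Figure D4:**
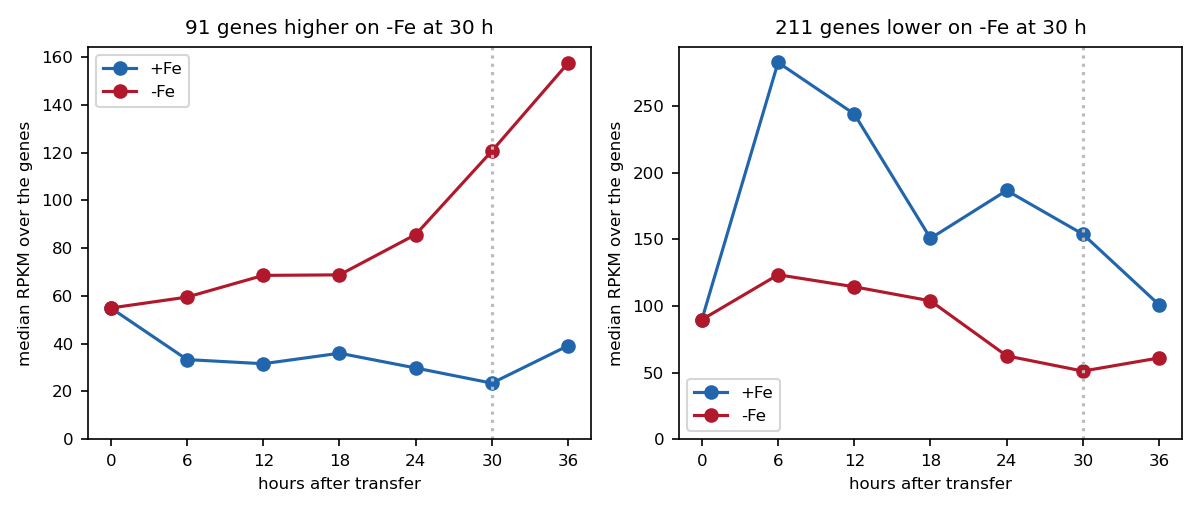
Median RPKM over the 91 genes that were higher (left) and the 211 that were lower (right) on -Fe at 30 h, by hours after transfer, on +Fe (blue) and -Fe (red), each 1 pooled value per gene and group; the dotted line marks 30 h, where the genes were chosen. On the left the -Fe curve climbs from 54.9 to 158 RPKM at 36 h, and on the right the +Fe curve peaks at 283 RPKM at 6 h while the -Fe curve is lowest at 30 h, at 51.1 RPKM.

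The neighbouring time points share no samples with 30 h and can be set beside it. The table holds genes called at any time point, so overlaps and correlations do not describe all expressed genes. At 24 h 75 genes (9.31%) were higher and 243 (30.1%) lower on -Fe, and at 36 h 79 (9.80%) and 111 (13.8%). Of the 211 lower genes at 30 h, 204 (96.7% of them, and 84.0% of those at 24 h) were also lower at 24 h, but 104 (49.3%, and 93.7% of those at 36 h) at 36 h. Their median ratio was -1.60 at 24 h and -1.62 at 30 h, and had shrunk to -0.71 by 36 h. The higher genes were shared about equally with both neighbours, 58 of 91 with 24 h (63.7% of them and 77.3% of those at 24 h) and 60 of 91 with 36 h (65.9% and 75.9%), and their medians were 1.01, 1.38 and 1.37. Across the 806 genes Pearson's r of the ratios at 30 h was 0.92 with those at 24 h and 0.86 with those at 36 h, and Spearman's rho was 0.86 and 0.76; genes are no independent replicates, and all 3 time points come from the same kind of table.

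Groups of genes differed in how they went on to 36 h. From 24 h over 30 h to 36 h, the ferritins had a median of -1.63, -2.29 and -2.66, and the iron regulators one of 1.53, 2.72 and 3.21. For IRT1 the ratio was 5.43, 6.63 and 7.36, and for bHLH38 4.78, 6.26 and 7.46. The sugar starvation genes had medians of -1.62, -2.04 and -0.84. NRT2.6 had -4.69, -6.05 and -2.72. GL2, GL3, TTG2 and HDG7 were lower at 24 h, with ratios from -1.58 to -2.14, and had ratios between -0.44 and 0.12 at 36 h. Past the threshold at 30 h and far from it at both neighbours, by the rule for named genes, were 2 genes: ABCC6, an ABC transporter, had ratios of 0.05, 1.01 and -0.06, and AT5G15660 had 0.29, 0.84 and 0.29.

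**Figure D5:**
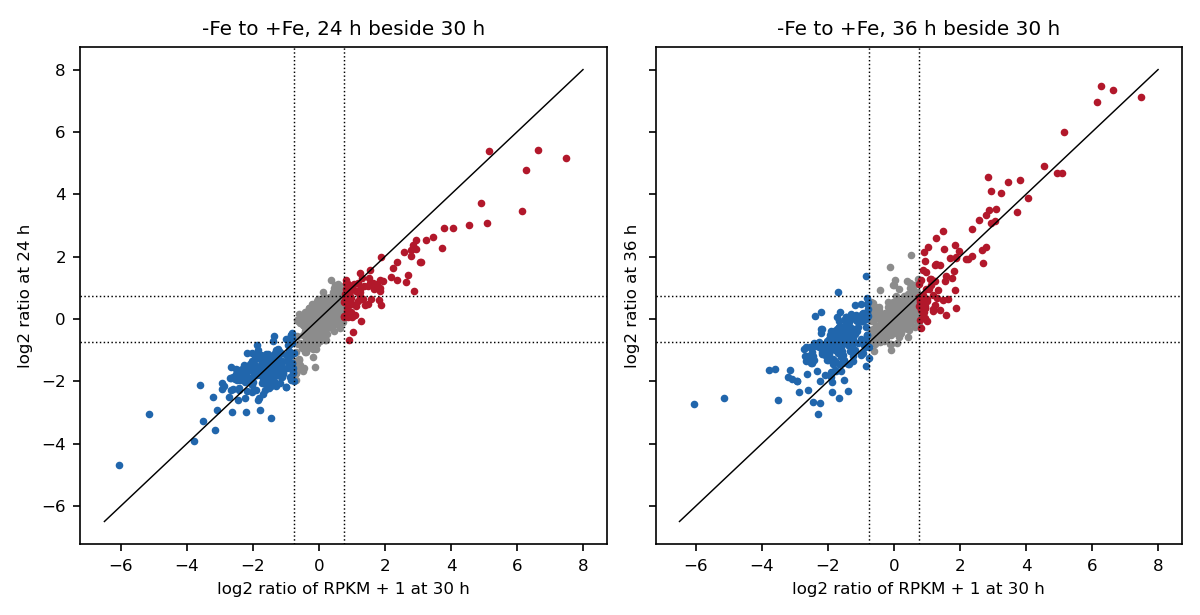
Log2 ratios of RPKM + 1, -Fe to +Fe, of the 806 genes at 30 h (horizontal) against 24 h (left) and 36 h (right); red and blue mark the 91 higher and 211 lower genes at 30 h, the solid line equal ratios and the dotted lines 0.75 and -0.75. At 24 h the blue genes lie along the line of equal ratios, whereas at 36 h most of them lie above it, nearer to 0.

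The promoters of the leading genes were searched for letters of elements known from iron and sugar responses, in windows of 300 bases that run from 250 bases before to 50 bases after the annotated start of each gene in the TAIR10.1 assembly, a revision of the TAIR10 genome to which the authors mapped. Windows were had for 27447 protein-coding genes and for all 806 genes of the table. The G-box CACGTG, which bHLH and bZIP factors bind, was found on either strand in 12.1% of the 91 higher, 11.8% of the 211 lower and 9.33% of the 504 other genes, and in 7.68% of all protein-coding genes. Of the 20 highest genes 4 held it, bHLH38, OPT3, AT5G05250 and CGLD27. The windows of the first 3 are shown with the G-box in capitals, since they are the clearest cases of this element near a start among the leading genes. That of bHLH38 is at 3:21085196-21085495 on the minus strand, with the G-box beginning 97 bases before the start, that of OPT3 at 4:9250294-9250593 on the minus strand, 78 bases before it, and that of AT5G05250 at 5:1558437-1558736 on the minus strand, with matches 52 and 24 bases before it.
bHLH38: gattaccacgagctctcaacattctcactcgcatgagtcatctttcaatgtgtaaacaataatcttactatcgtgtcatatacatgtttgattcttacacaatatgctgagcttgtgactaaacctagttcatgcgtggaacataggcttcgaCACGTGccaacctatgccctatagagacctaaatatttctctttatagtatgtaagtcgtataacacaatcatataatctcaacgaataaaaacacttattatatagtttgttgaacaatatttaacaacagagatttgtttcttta
OPT3: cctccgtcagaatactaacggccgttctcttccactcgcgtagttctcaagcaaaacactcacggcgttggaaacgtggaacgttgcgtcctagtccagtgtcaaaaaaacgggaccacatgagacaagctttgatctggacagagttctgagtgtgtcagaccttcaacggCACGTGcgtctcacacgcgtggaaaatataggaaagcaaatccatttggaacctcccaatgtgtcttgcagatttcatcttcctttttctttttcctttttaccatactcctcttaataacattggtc
AT5G05250: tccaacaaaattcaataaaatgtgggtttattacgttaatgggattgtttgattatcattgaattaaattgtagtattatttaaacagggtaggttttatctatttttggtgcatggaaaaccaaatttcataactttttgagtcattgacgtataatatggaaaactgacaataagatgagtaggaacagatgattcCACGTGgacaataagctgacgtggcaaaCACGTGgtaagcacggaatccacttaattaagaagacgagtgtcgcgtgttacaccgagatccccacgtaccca

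Of the letters searched, TATCCA and the W-box were the ones found more often in the lower genes than in both the higher and the other genes. TATCCA, an element known from sugar-starved rice amylase promoters, was found on either strand in 27.0% of the lower genes, 15.4% of the higher, 13.7% of the others and 16.1% of all protein-coding genes, and in 10 of the 20 lowest genes against 2 of the 20 highest. IGMT2 and IGMT3, which have near-identical copies, are 2 of those 10. The W-box TTGAC, bound by WRKY factors, was in 62.6% of the lower, 48.4% of the higher and 53.2% of the other genes, and in 50.5% of all, and in 16 of the 20 lowest genes against 9 of the 20 highest. The E-box CANNTG, which takes in the G-box, was in 64.0%, 64.8% and 65.1% of these groups in the same order, the evening element core AATATCT in 11.4%, 18.7% and 12.1%, and the letters ACTCAT in 15.6%, 16.5% and 15.3%. The site II letters TGGGCT or TGGGCC were in 12.8%, 11% and 13.5%, against 21.7% of all protein-coding genes. A match says only that these letters are in the window. Windows of 4 lower carbon genes are shown with TATCCA, or TGGATA where it lies on the other strand, in capitals: MIOX4 at 4:13297445-13297744 on the plus strand, DIN6 at 3:17441382-17441681 on the minus strand, PCK2 at 5:26265930-26266229 on the plus strand and BMY3 at 5:6225706-6226005 on the plus strand. The first match begins 37, 101, 184 and 52 bases before the start. Members of the sugar starvation list among the 20 lowest genes differed: DRM2 held a match, whereas AGT and DIN3 held none. The windows of DIN6 and BMY3 also hold the G-box, which is left in lower case here.
MIOX4: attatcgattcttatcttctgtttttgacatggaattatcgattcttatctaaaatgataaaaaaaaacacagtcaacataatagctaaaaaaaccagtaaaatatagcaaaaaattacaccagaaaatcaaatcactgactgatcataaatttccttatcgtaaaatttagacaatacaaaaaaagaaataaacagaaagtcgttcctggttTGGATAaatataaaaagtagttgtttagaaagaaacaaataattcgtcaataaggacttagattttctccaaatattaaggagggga
DIN6: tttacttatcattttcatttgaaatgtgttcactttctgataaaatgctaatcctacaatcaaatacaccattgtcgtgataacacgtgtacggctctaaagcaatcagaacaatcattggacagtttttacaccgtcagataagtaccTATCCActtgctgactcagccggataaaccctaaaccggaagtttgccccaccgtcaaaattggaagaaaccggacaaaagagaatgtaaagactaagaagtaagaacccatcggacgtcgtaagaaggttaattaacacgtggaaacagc
PCK2: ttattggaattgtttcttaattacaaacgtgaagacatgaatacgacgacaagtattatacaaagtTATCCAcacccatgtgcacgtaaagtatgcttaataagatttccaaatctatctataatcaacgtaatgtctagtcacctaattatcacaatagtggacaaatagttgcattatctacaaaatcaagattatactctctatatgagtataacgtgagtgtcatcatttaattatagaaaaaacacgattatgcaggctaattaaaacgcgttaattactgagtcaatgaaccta
BMY3: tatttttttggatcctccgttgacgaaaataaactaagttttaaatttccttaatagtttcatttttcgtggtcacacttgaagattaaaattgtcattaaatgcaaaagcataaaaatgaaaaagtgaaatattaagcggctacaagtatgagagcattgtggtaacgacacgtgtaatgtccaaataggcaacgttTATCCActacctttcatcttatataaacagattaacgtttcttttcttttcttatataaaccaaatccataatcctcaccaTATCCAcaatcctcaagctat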

How the data were processed

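RNA-seq libraries came from sorted root epidermis. The authors assessed reads with FastQC, mapped them to TAIR10 with TopHat2, called genes with edgeR and deposited RPKM values, 1 per gene and group. The read total, the pooling of the 3 libraries and the use of strand are not given in the sources used here. For the cDNA, the methods and the labels name different kits, one of them directional. No test fits 1 value per group, so genes were counted by size, and all 13 value columns were used, with 0 left out.

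For each gene RPKM + 1 on -Fe was divided by that on +Fe, and the log2 of this was held against a threshold of 0.75. The members and lists were chosen with earlier results of these data known. Families were found by words of the RefSeq product. The genes named are the 20 highest and 20 lowest, all measured members of the 5 iron and metal lists, up to 4 members past the threshold in each direction of other lists, 3 at each side of each threshold, at most 10 that passed at 30 h but stayed far below the threshold at 24 and 36 h, and the 5 most abundant. Genes outside this rule were picked after their values were seen. These are FRO4, IRT3, MT1C, KIN11, MIOX2, PTR3, BIR6, NIA2, EXL2, DIN4, DIN10, MCCA, DRM1, PRODH1, TCH3, SOS3, GH3.3, YUC5, YUC8, TAR2 and CCOAMT, and of the haem and iron-sulphur genes HEMA1, GUN5, SAPX, APX1, SIR and ACO3. All 806 IDs matched TAIR10.1, the source of names, promoters and exon overlaps. Of them 205 share exon bases with another gene and 16 hold near-identical stretches found with blastn 2.17.0, and these are less certain. Depth per sample is unknown, so no interval is given. The ratio code was tested on simulated data. The alternatives changed the pseudocount (0.1 and 10), the minimum level, the centring, the control and the threshold. Python 3.11.15 was run with pandas 2.3.3, numpy 2.4.6 and matplotlib 3.10.9.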

Additional observations from a re-analysis of the deposited data

Results flagged for a closer look

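PTR3, a peptide transporter of the nitrate transporter family, and BIR6, a pentatricopeptide repeat protein, were past the threshold in opposite directions at 30 h and 36 h. PTR3 had 14.2 RPKM on +Fe and 3.71 RPKM on -Fe at 30 h, a ratio of -1.69, and a ratio of 0.87 at 36 h. BIR6 had 16.6 and 8.69 RPKM at 30 h, a ratio of -0.86, and a ratio of 1.38 at 36 h. Both were lower on -Fe at 24 h, with -2.40 and -1.87. With 1 value per group the difference between the time points was not tested.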

How the results depend on the processing

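No paired analysis was possible because the table holds 1 value per group; the planned fits without each replicate and with a replicate block were therefore not run. With a list of under 3 genes a median was taken as moved past 0.75, otherwise past 1 SD over its genes, and a count past 1.5 times. The control mattered most. Set against 0 h in place of +Fe at 30 h, 191 genes passed, 48 of them higher, and the median of the sugar starvation genes was -0.64. Of the 116 genes named, 99 were past the threshold. Against 0 h the sign turned for 11 of these: NIA1 (-0.012), LSU2 (-0.19), AHA7 (-0.62), ABCC6 (-0.13), YUC5 (-0.017), AT5G16010 (-0.75), BIR6 (0.88), PTR3 (0.57), NRT1.8 (0.91), MIOX4 (0.048) and NRT2.6 (0.015). Another 31 were then under the threshold. Of the 17 named genes first under the threshold, 8 turned sign against 0 h, and 2 of these were then past it, NIA2 (-0.79) and CYP71A12 (1.47). A threshold of 0.5 gave 138 higher genes, and a threshold of 1 left 63 genes lower at both 30 h and 36 h. A pseudocount of 10 gave the ferritins a median of -1.82 and left 264 genes past the threshold. Without genes that share exon bases or near-identical stretches, 592 genes were left, of which 72 were higher and 140 lower. With all 806 genes these counts were 91 and 211, so the smaller counts rest on fewer genes. This alternative was chosen after seeing the data, as was the scaling to the same median level. None of the 99 genes changed sign under the other alternatives, of pseudocount, minimum level, centring, scaling or the mean of +Fe at 24, 30 and 36 h as control, under which up to 9 of the named genes fell under the threshold; of the 17 genes first under it, BRN1, AT5G10130, F6H1 and GSTU19 turned sign under at least 1 of them. Ratios of genes with a level of a few RPKM on one medium depend on the pseudocount, and the unknown depth limits what can be said of them.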

Other observations

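The table held 3 genes annotated as ribosomal proteins, and all 3 were lower on -Fe at 30 h, against 26.2% of the table. Nothing is read from 3 genes about the family. Their median was -1.64, beside -2.27 at 24 h and 0.03 at 36 h. AT2G43030, of the L3 family, had 111 RPKM on +Fe and 44.3 RPKM on -Fe, AT5G59240, of the S8e family, had 51.4 and 15.8 RPKM, and AT5G24490, annotated as a 30S protein, had 216 and 39.6 RPKM, with 159 exon bases shared with the other strand. At 0 h their levels had been 68.8, 18.5 and 51.3 RPKM, nearer to those on -Fe.

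Of 8 lectins 4 were lower and none was higher, against 26.2% and 11.3% of the table, with a median of -0.76, although the 2 most abundant genes of the table, AT1G52070 and AT1G52060, are lectins with ratios of 0.41 and 0.11. Of 5 WRKY factors 3 were lower and none was higher against the same shares, among them WRKY42, at 62.8 and 34.4 RPKM, a ratio of -0.85. Wall and water channel families lay mostly between the thresholds, as did 62.5% of the table. Lower were 1 of 5 expansins, 1 of 7 arabinogalactan proteins and 1 of 3 aquaporins, and none was higher. Of 11 pectin methylesterases and pectin lyases 2 were higher and 1 was lower. Nothing is read from these few genes about the families. EXPA17, the lower expansin, stood at 702 and 273 RPKM, a ratio of -1.36, and FLA9, the lower arabinogalactan protein, at 626 and 261 RPKM, a ratio of -1.26. TIP2, a water channel of the vacuole, stood at 1619 and 655 RPKM, a ratio of -1.30. Of 10 genes of phosphate starvation, 14 of abscisic acid and drought, 10 of jasmonate and 15 of the circadian clock, none was in the table. That does not say that they were absent from the libraries.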
